A study of Canis lupus familiaris with 77 samples.

Results

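miR-143 and miR-145 are a pair of miRNAs made from neighbouring hairpins, and both are known as the characteristic miRNAs of smooth muscle. Their levels are described here across 16 tissues of untreated dogs. The members were chosen by name, with earlier results of these data known. Every row of the count table whose miRNA name was cfa-miR-143, cfa-miR-145 or hsa-miR-145-3p was taken, which gave 3 of the 650 miRNAs in the table. In this naming cfa-miR-143 is the 3p arm of its hairpin, cfa-miR-145 is the 5p arm, and hsa-miR-145-3p is the opposite arm of the miR-145 hairpin, annotated in dog from the human sequence. The table held 4 mature arms of both hairpins in all, and the remaining one, hsa-miR-143-5p, is given only where the arms are compared.

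As background, a miRNA hairpin is cut into a duplex of 2 arms, of which usually one is retained in the silencing complex and binds messenger RNAs. The miR-143 and miR-145 hairpins are transcribed together from a single locus, whose transcription in muscle depends on serum response factor and its cofactor myocardin. In mice the pair is abundant in the smooth muscle of vessels, gut and airways, where it represses factors such as KLF4 and promotes the contractile state over the proliferating state. In the gut the pair has been located to the smooth muscle and other mesenchymal cells of the wall, with little in the epithelium. In the RefSeq annotation of another dog assembly, UU_Cfam_GSD_1.0, the genes MIR143 (gene ID 100885924) and MIR145 (gene ID 100885996) lay on the same chromosome with 0 of the 43286 annotated genes between them.

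Small RNA was sequenced from male beagle dogs that received no treatment, and no disease, genotype or dose group was part of the design. The study's methods give 5 dogs of 10 months of age, with vessels flushed with buffered saline before collection to reduce blood in the organs. The groups were duodenum, jejunum, ileum and colon of the gut, the muscles heart and skeletal muscle (quadriceps), the organs lung, liver, kidney, pancreas, testis and thymus, the nervous tissues brain and sciatic nerve, and bone marrow and plasma. Of 77 labelled samples, 76 had values: 14 tissues had 5 libraries, colon had 4 and sciatic nerve had 2. These are bulk tissues, so no cell type was isolated, and fewer cells of a type cannot be told apart from less RNA per cell. Replicate numbers below only name the libraries of a tissue, since the labels carry no dog number, and p-values measure the spread between these libraries. The study describes the sciatic nerve samples in several ways, so whether its 2 libraries came from separate dogs was not settled.

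The libraries held 157871 to 7896424 reads on miRNAs, with a median of 1.36e+06. Levels are reads per 1000000 of those reads (RPM), as deposited. A count of 0 reads allows up to 3 reads, which came to 0.380 to 19.003 RPM depending on the library, and intervals and limits cover counting error only. Each of 12 tissues was checked against marker miRNAs of its own cells, and in 8 libraries their summed level was under 10% of that in the best library of the same tissue. These were testis replicates 2 and 3, with 0.537% and 0.0639% of reads on 4 testis miRNAs against 5.79% to 10.7% in the other testis libraries (the testis list was added after the values were seen). Duodenum replicates 3 and 4 had 2.52% and 0.618% of reads on 8 epithelial miRNAs, against 9.12% to 54.1% in the rest of the duodenum. Skeletal muscle replicate 4 had 0.0735% on 7 striated muscle miRNAs against 3.92% to 11.6%, and thymus replicates 2, 3 and 5 had 0.0424% to 0.101% on 4 leukocyte miRNAs against 1.52% to 1.90%. Several comparisons below are also given without these libraries.

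miR-143 was one of the most abundant miRNAs of the dog. It took 14286825 of 126561265 reads, or 11.3% of all reads, and had reads in 76 of 76 libraries. By tissue median it ranked first among all miRNAs in colon, ileum, duodenum and lung and was in the first 10 in 13 of the 16 tissues, with plasma the lowest at rank 38. miR-145 was far less abundant, with 200415 reads (0.158%) in 75 of 76 libraries and tissue ranks from 26 to 177. The opposite arm, miR-145-3p, had 24636 reads (0.0195%) in 76 of 76 libraries, at ranks 64 to 220. A tissue median above 100 RPM was reached in 16 tissues by miR-143, in 15 by miR-145 and in 9 by miR-145-3p.

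The range between tissues was wide for all 3 members. The highest tissue median was 265-fold above the lowest for miR-143, 359-fold for miR-145 and 101-fold for miR-145-3p, and plasma was the lowest tissue each time. The 4 highest tissues were colon, duodenum, ileum and jejunum for each member, in different orders.

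**Figure D1:**
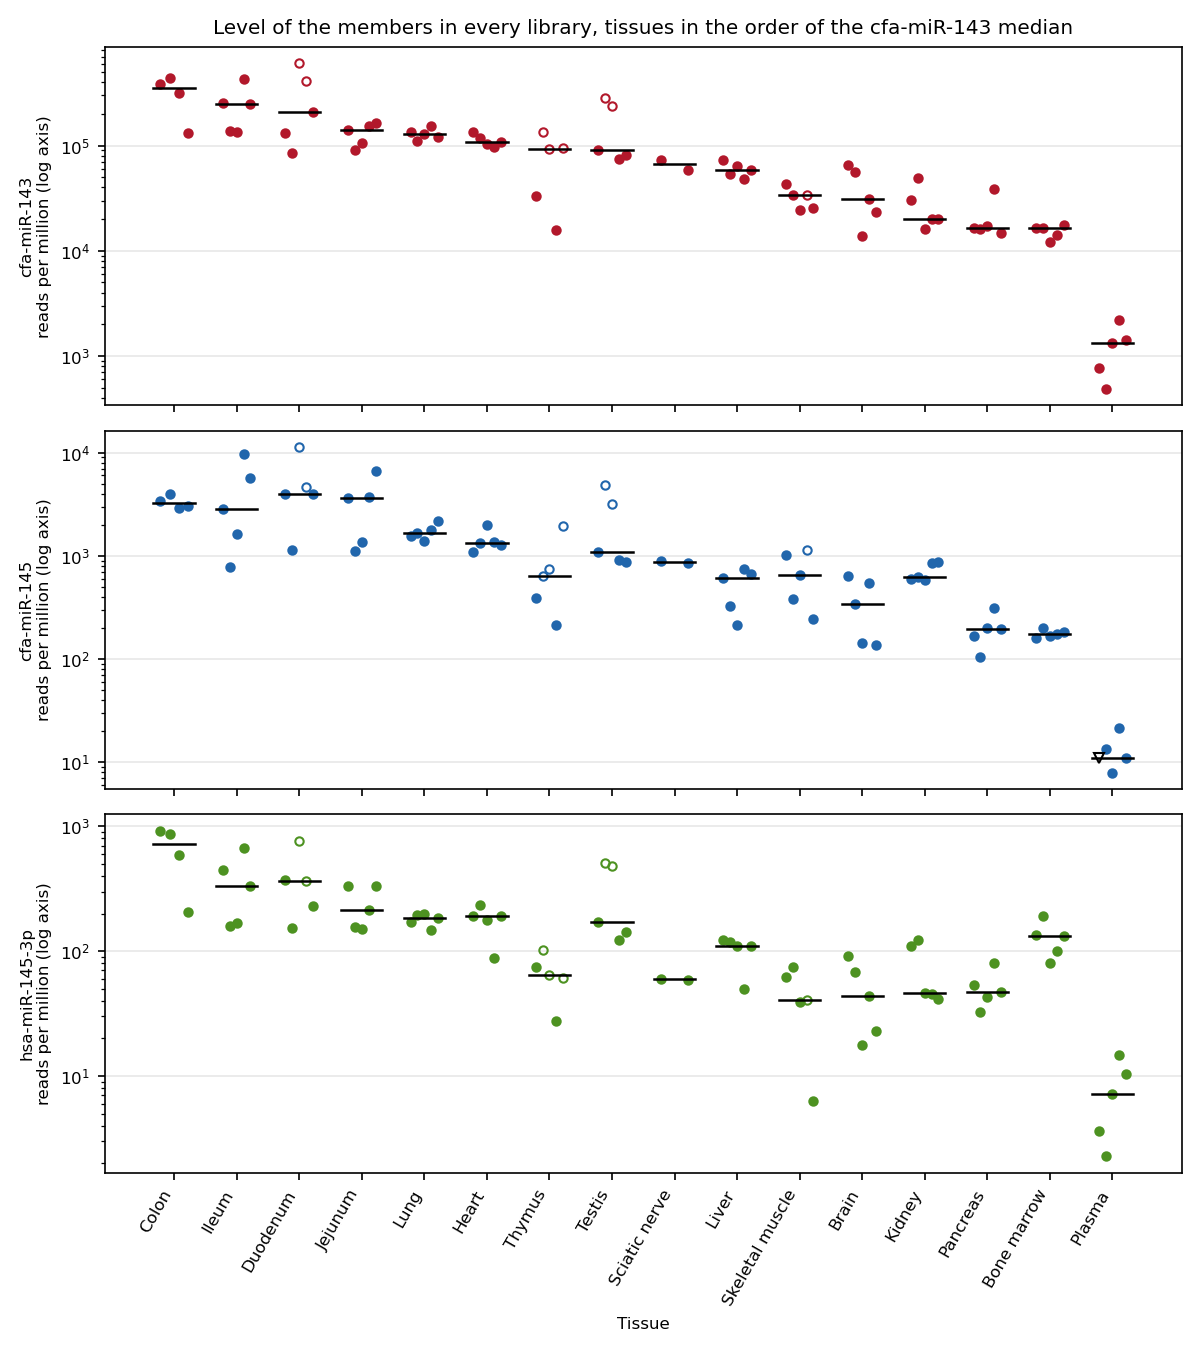
RPM of miR-143, miR-145 and miR-145-3p (log axis) in each library of the 16 tissues, with a bar at the tissue median. Open circles are the 8 libraries low in the markers of their own tissue. The open triangle is the limit for the plasma library with 0 reads of miR-145. Intestinal tissues have the highest medians, with libraries that overlap those of other tissues, and plasma has the lowest median.

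In the colon, miR-143 was at 385740, 437163, 318519 and 132060 RPM in replicates 1, 2, 3 and 5, a mean of 318370 ± 133369 (SD, n = 4). Replicate 5 was the lowest of the 4 and overlapped the other intestinal segments. The ileum had 252406, 138126, 135640, 430677 and 248702 RPM, and the duodenum 132689, 84748, 604122, 408300 and 209375 RPM in replicates 1 to 5. Duodenum replicate 3, in which miR-143 took 60.4% of the reads (95% Wilson interval 603307 to 604935 RPM), was the highest library of the series. The jejunum was lower and tighter, at 140537, 90656, 105962, 154231 and 164349 RPM. All 4 segments overlapped each other in these values.

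Lung and heart followed the gut with a small spread. Lung libraries were at 134408, 110989, 129906, 154459 and 121043 RPM (CV 12.5%), and heart libraries at 135203, 117495, 104373, 96567 and 108305 RPM (CV 13.2%). Testis and thymus were split within the tissue. In testis replicates 2 and 3 stood at 283034 and 236239 RPM and replicates 1, 4 and 5 at 90496, 74404 and 81646 RPM. In thymus replicates 2, 3 and 5 stood at 132995, 92135 and 94577 RPM and replicates 1 and 4 at 32851 and 15742 RPM. In both tissues the higher set was the set of libraries low in the tissue's own markers, without overlap, and the same held in the duodenum, where the low-marker libraries were at 408300 to 604122 RPM and the others at 84748 to 209375 RPM. The single such library of skeletal muscle, at 34172 RPM, lay within the range of the others, 24510 to 43172 RPM. Whether what set the marker levels also set those of miR-143 was not tested.

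The remaining tissues were lower. Sciatic nerve had 73287 and 59135 RPM, liver 47655 to 72648 RPM (median 58471), brain 13766 to 65445 RPM (median 31248), kidney 16153 to 49213 RPM (median 20045) and pancreas 14644 to 38971 RPM (median 16595). Bone marrow was at 12079 to 17415 RPM, from 2235 to 3951 reads. Plasma was lowest, at 775, 485, 1331, 2184 and 1432 RPM in replicates 1 to 5, and its highest library was below the lowest library of every other tissue.

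miR-145 followed the same broad order at a lower level. The duodenum had the highest median, with 3951, 1129, 11334, 4623 and 3976 RPM, followed by the jejunum with 3659, 1115, 1371, 3728 and 6705 RPM. Colon libraries agreed closely at 3375, 3974, 2928 and 3058 RPM (CV 13.99%). Ileum libraries ranged more than any other segment, with 2822, 786, 1633, 9646 and 5677 RPM (CV 87.6%). Lung was at 1377 to 2159 RPM and heart at 1102 to 1982 RPM. Testis again split into 4839 and 3180 RPM in replicates 2 and 3 and 1086, 911 and 864 RPM in the others. The remaining tissue medians ran from 873 RPM in sciatic nerve to 175 RPM in bone marrow, the latter from 26 to 48 reads a library. In plasma, replicate 1 had 0 reads of miR-145, which allows up to 10.9 RPM, and the others had 11 to 34 reads, or 7.93 to 21.7 RPM.

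miR-145-3p was highest in the colon, at 923, 864, 591 and 206 RPM, with the low value again in replicate 5. Duodenum (154 to 760 RPM), ileum (160 to 670 RPM) and jejunum (149 to 335 RPM) overlapped it. Heart had 88.1 to 235 RPM, lung 148 to 199 RPM, and testis 507 and 482 RPM in replicates 2 and 3 against 123 to 170 RPM in the rest. Bone marrow, next to last for both other members, was in the eighth place here with 81.1 to 192 RPM, counted from 15 to 46 reads. The lowest solid tissue was skeletal muscle at 61.8, 75.03, 39.3, 40.8 and 6.33 RPM, where the last value came from 2 reads (95% Wilson interval 1.74 to 23.1 RPM). Plasma libraries held 1 to 23 reads, or 2.27 to 14.7 RPM.

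Neighbours in the order of medians were compared as well. For each member the 15 pairs of adjacent tissues were compared by a two-sided exact permutation test of mean log2(RPM + 1), and 0 of 15 pairs passed after Benjamini-Hochberg adjustment over the pairs for miR-143, miR-145 or miR-145-3p. Unadjusted exact p-values under 0.05 were found for 2, 1 and 1 pairs. For miR-143 these were liver above skeletal muscle and bone marrow above plasma, each with an exact permutation p of 0.00794, the smallest that 5 against 5 libraries allow, and an adjusted p of 0.0595. For miR-145 bone marrow also lay above plasma at that exact permutation p, with an adjusted p of 0.119, which is the lowest a single such pair can reach among 15. The libraries of these miR-143 and miR-145 pairs did not overlap, so the adjusted p-values do not show that the tissues are alike. For miR-145-3p the pair was skeletal muscle above plasma (exact permutation p = 0.0317, adjusted 0.476). Its libraries overlapped, with skeletal muscle down to 6.33 RPM and plasma up to 14.7 RPM. Without thymus replicate 2 there were 3 neighbouring pairs past adjustment for miR-143.

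The study's rule for tissue enrichment asks whether a tissue's mean exceeds 5 times the mean of all other libraries, together with an adjusted rank-sum p under 0.05. Here the test was exact and two-sided, the adjustment was made within each tissue, and a tissue median above 100 RPM was required too. Among all miRNAs 1.63% of 10400 pairs of miRNA and tissue met the rule, and 0 of the 48 pairs of the members did. No pair passed 5-fold by the ratio of means, although 3 did by the ratio of medians, with 5.45 for miR-143 in colon, 5.06 for miR-145 in duodenum and 6.65 for miR-145-3p in colon. By means miR-143 reached 3.40-fold in colon (adjusted exact rank-sum p = 0.214), miR-145 reached 3.71-fold in duodenum (adjusted exact rank-sum p = 0.197) and miR-145-3p reached 4.32-fold in colon (exact rank-sum p = 0.00046, adjusted 0.0598). Of the 48 pairs, 10 were higher with an unadjusted exact p under 0.05 and 0 after adjustment, while 6 were lower after adjustment, namely all 3 members in plasma, miR-143 and miR-145 in bone marrow, and miR-145 in pancreas. Adjusted over all tissues together, 4 pairs were higher with an adjusted p under 0.05, and still none was above 5-fold. Without the low-marker libraries miR-145 in duodenum was at 2.35-fold (adjusted exact rank-sum p = 0.841) and miR-145-3p in colon at 4.93-fold (0.0499). In that setting 2 pairs were higher with an adjusted exact rank-sum p under 0.05, and 0 were above 5-fold. Colon replicate 5 decided the 5-fold limit of one pair: without it miR-145-3p was 5.30-fold higher in colon with an adjusted exact rank-sum p of 0.0385.

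Each tissue was next compared with the mean of the other 15 tissues with edgeR's quasi-likelihood test on the counts (TMM scaling, 480 miRNAs tested, all 76 libraries in one fit, Benjamini-Hochberg adjustment over miRNAs). Over all miRNAs 24.6% of 7680 pairs were called higher and 14.3% lower. Of the 48 pairs of the members, 19 were higher, 11 lower and 18 not past the threshold. miR-143 was higher in 7 tissues and lower in 4, miR-145 higher in 6 and lower in 4, and miR-145-3p higher in 6 and lower in 3. All 3 members were higher in colon, duodenum, ileum, jejunum, heart and testis, and lung was higher in miR-143 alone. All 3 were lower in plasma, brain and pancreas, and bone marrow was lower in miR-143 and miR-145.

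In the duodenum miR-143 was 2.96 ± 0.27 higher (log2 difference ± SE), miR-145 3.30 ± 0.29 and miR-145-3p 2.29 ± 0.29 (edgeR adjusted p of 1.22e-14, 3.1e-15 and 1.5e-09). The colon differences were 2.66 ± 0.30, 2.25 ± 0.35 and 2.82 ± 0.30, and those of the ileum 2.03 ± 0.30, 2.42 ± 0.31 and 1.69 ± 0.31. In the jejunum miR-143 was higher by 1.18 ± 0.32 (edgeR, adjusted p = 0.00239), miR-145 by 2.18 ± 0.32 and miR-145-3p by 1.13 ± 0.33. Without the low-marker libraries the duodenum differences were 1.71, 2.34 and 1.41 and those of the colon 3.03, 2.58 and 3.07, all past the threshold, so the order of these 2 segments in miR-143 and miR-145 rests on those libraries.

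In heart the differences were 1.21 ± 0.32 for miR-143 (edgeR, adjusted p = 0.00156), 1.06 ± 0.36 for miR-145 (0.0128) and 0.90 ± 0.34 for miR-145-3p (0.0285). Lung was 0.88 ± 0.33 higher in miR-143 (edgeR, adjusted p = 0.0353), while miR-145 differed by 0.88 ± 0.36 there with an edgeR adjusted p of 0.0606. Leaving plasma and bone marrow out of the reference, an alternative chosen after the data were seen, lowered the heart differences to 0.62, 0.42 and 0.61 and the lung and jejunum differences of miR-143 to 0.47 and 0.64, all no longer past the threshold. The testis differences of 1.16 ± 0.32, 1.28 ± 0.35 and 1.195 ± 0.33 turned to −0.091, −0.30 and −0.28 without the low-marker libraries, with edgeR adjusted p of 0.993, 0.688 and 0.710.

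**Figure D2:**
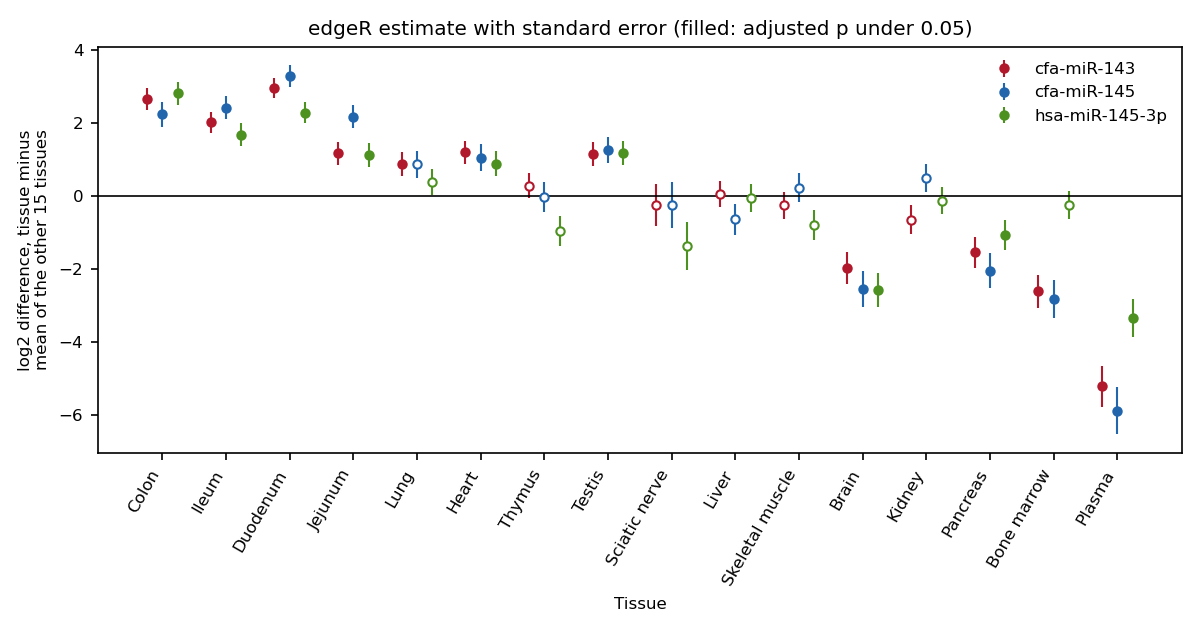
Log2 difference of each tissue from the mean of the other 15 tissues for miR-143, miR-145 and miR-145-3p, from the edgeR fit, with bars of 1 SE and filled points where the adjusted p is under 0.05. Tissues run from left to right in the order of the miR-143 median. The 4 intestinal tissues, at the left, lie high at 1.13 to 3.30. Plasma, at the right, lies far below 0 at −3.33 to −5.87. Bone marrow is low in miR-143 and miR-145 but near 0 in miR-145-3p.

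Plasma differed by −5.20 ± 0.55 in miR-143, −5.87 ± 0.65 in miR-145 and −3.33 ± 0.52 in miR-145-3p. Bone marrow differed by −2.61 ± 0.46 in miR-143 and −2.80 ± 0.52 in miR-145, but by −0.23 ± 0.39 in miR-145-3p (edgeR, adjusted p = 0.830). Per the study's methods the RNA of bone marrow was isolated with another reagent than that of the organs, and plasma isolation is described separately. Those steps and the tissues cannot be told apart. Brain differed by −1.97 ± 0.44, −2.54 ± 0.50 and −2.56 ± 0.46, and pancreas by −1.54 ± 0.42, −2.03 ± 0.48 and −1.05 ± 0.41. The pancreas call of miR-145-3p was lost with DESeq2 size factors (−0.82, edgeR adjusted p = 0.108), with DESeq2's Wald test (adjusted p = 0.0637), without the low-marker libraries (−0.54) and in 11 of the 76 fits that left out 1 library. The brain difference of miR-143 depended on the scaling: with library size in place of TMM it was −0.69 with an edgeR adjusted p of 0.0577.

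The intestinal tract as a whole carries a thick muscular wall, so its 4 tissues were compared with the other 12. In the 19 intestinal libraries the lowest, median and highest miR-143 levels were 84748, 164349 and 604122 RPM, and in the 57 others 485, 43172 and 283034 RPM. For miR-145 they were 786, 3659 and 11334 RPM in the gut and 0, 618 and 4839 RPM elsewhere. For miR-145-3p they were 149, 332 and 923 RPM in the gut and 2.27, 81.0 and 507 RPM elsewhere. The groups overlapped: 16, 22 and 12 of the 57 other libraries lay above the lowest intestinal one, and 6, 4 and 5 of the 19 intestinal libraries lay above all others.

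By edgeR's quasi-likelihood test 30.6% of the 480 miRNAs were called higher in the gut and 15.6% lower, and the members were called higher in 3 of 3. miR-143 was 6.77-fold higher (log2 2.76 ± 0.20, adjusted p = 1.63e-19), miR-145 was 9.01-fold higher (log2 3.17 ± 0.23, adjusted p = 8.37e-20) and miR-145-3p was 5.57-fold higher (log2 2.48 ± 0.20, adjusted p = 2.1e-17). Ordered by log2 difference they were at ranks 30, 24 and 32 of the 480, and the median of all tested miRNAs was 0.0046. Leaving out 1 library at a time kept the differences at 2.67 to 2.91, 3.02 to 3.30 and 2.40 to 2.64. Without plasma and bone marrow they were 2.17, 2.51 and 2.27, and without the low-marker libraries 2.72, 3.21 and 2.44.

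Colon and small intestine were then compared with each other, a question of regional level within the gut in which 4.17% of the 480 miRNAs were called in either direction. By edgeR's quasi-likelihood test 0 of the 3 members were called over all libraries, and DESeq2's Wald test also called 0. The log2 differences of colon minus small intestine were 0.57 ± 0.42 for miR-143 (adjusted p = 0.584), −0.36 ± 0.50 for miR-145 (0.837) and 1.05 ± 0.42 for miR-145-3p (0.171). Only miR-145-3p had an unadjusted p under 0.05, of 0.0143. Without the 8 low-marker libraries, of which duodenum replicates 3 and 4 belong to this comparison, miR-143 was 1.07 higher in colon (edgeR, adjusted p = 0.0276) and miR-145-3p 1.39 higher (0.0098), while miR-145 was at 0.013 (1.00). miR-145-3p also passed when colon replicate 5 (1.49), duodenum replicate 3 (1.31) or ileum replicate 4 (1.32) was left out alone, and without ileum replicate 4 the miR-145 difference was 0.038.

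Heart was compared with skeletal muscle as the 2 striated muscle tissues, with 6.25% of the 480 miRNAs called higher in heart. Only miR-145-3p was called by edgeR, at 2.98-fold (log2 1.58 ± 0.53, adjusted p = 0.0351), with 88.1 to 235 RPM in heart and 6.33 to 75.03 RPM in skeletal muscle, without overlap. miR-143 did not overlap either, at 96567 to 135203 RPM against 24510 to 43172 RPM, but its difference of 1.37 ± 0.50 had an edgeR adjusted p of 0.0622. It passed under each of the other scalings, filters and tools tried, at 1.47 to 1.93, and without the low-marker libraries at 1.32 (edgeR, adjusted p = 0.0293), where miR-145-3p fell short at 1.44 (0.0516). miR-145 differed by 0.77 ± 0.55 (edgeR, adjusted p = 0.396).

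The 3 members moved together across libraries. The correlations that follow are descriptions without a test, since libraries of a tissue share their tissue and all values share a library total. Across 76 libraries the log2 levels of miR-143 and miR-145 had a Pearson r of 0.94 and a Spearman rho of 0.92, and without plasma the r was 0.89 over 71 libraries. Within tissues, as deviations from the tissue mean, miR-143 followed miR-145-3p at r = 0.80, miR-145 at r = 0.66, and the arms of the miR-145 hairpin followed each other at r = 0.58. In the 19 intestinal libraries the same r values were 0.88, 0.72 and 0.71. The library with the highest miR-143 of a tissue was also the highest in miR-145 in 9 of 16 tissues and in miR-145-3p in 10 of 16, and the lowest library was shared in 5 and 10 of 16.

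Among the 265 other miRNAs with a tissue median above 100 RPM, those with the pattern most like miR-143 over 76 libraries were miR-145 (rho 0.92), miR-145-3p (rho 0.87) and then miR-23b (rho 0.69). For miR-145 they were miR-143 (rho 0.92), miR-145-3p (rho 0.81) and miR-23b (rho 0.76). Over the 16 tissue medians, miR-145 and miR-143 had a rho of 0.94.

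**Figure D3:**
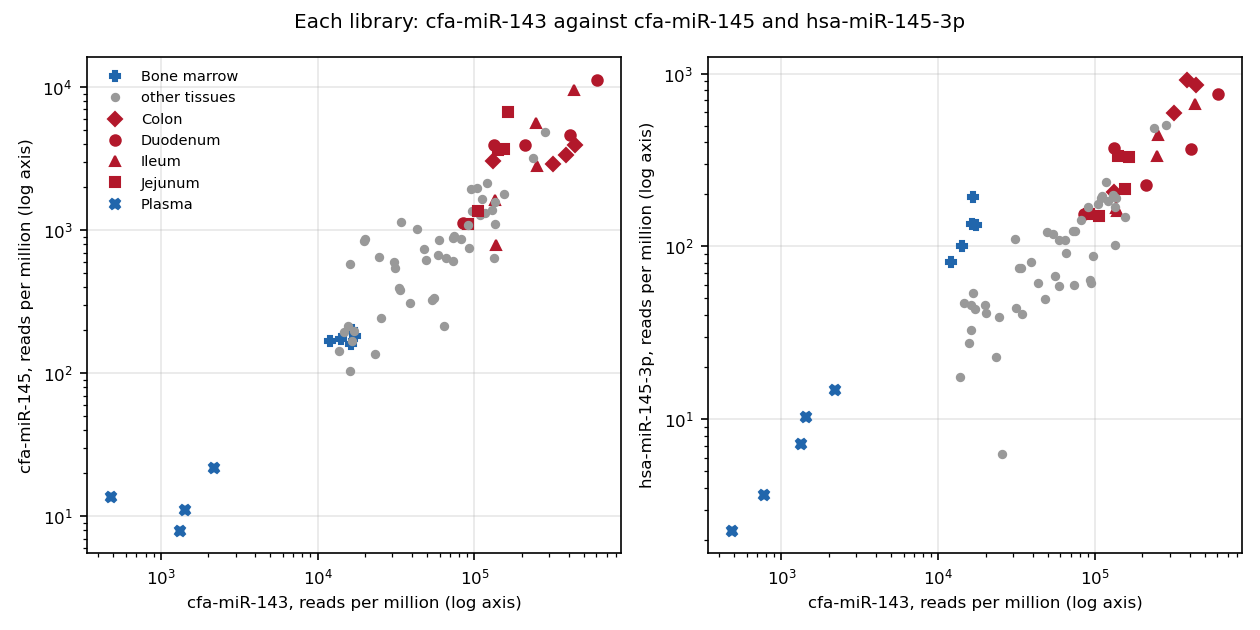
Level of miR-145 (left) and miR-145-3p (right) against miR-143 in each library, RPM on log axes, coloured by kind of tissue. The points form a band from plasma at the lower left to the intestinal libraries at the upper right (r = 0.94 for miR-145 and r = 0.89 for miR-145-3p); the plasma library with 0 reads of miR-145 is not drawn in the left panel.

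Although both hairpins come from one locus, their read numbers were far apart and the ratio varied. In a median library there were 82.8 reads of miR-143 for each read of miR-145, with a range of 23.0 to 427 (0.5 reads were added to each count, and the highest ratio is the plasma library with 0 reads of miR-145). Tissue accounted for 39.3% of the variance of the log2 ratio, with a permutation p of 0.00418 over 100000 resamples. This is a raw share, not corrected for the number of tissues, and shuffled libraries also give a share above 0. Kidney had the lowest ratios, 51.0, 79.6, 27.9, 23.5 and 23.0, with a median of 27.9, and was the 1 tissue of 16 that differed from all other libraries (exact rank-sum p = 0.00208, adjusted 0.0333). Kidney replicates 1 and 2 lay apart from replicates 3, 4 and 5. The study reports very low RNA integrity values in some kidney samples and high values in others. Which libraries these were was not settled, and a link to the ratio was not tested. The kidney call was lost without replicate 1, 3, 4 or 5 of kidney (adjusted exact rank-sum p of 0.0639 to 0.184) and when all libraries were thinned to 157871 reads (0.0596). Jejunum had a median of 41.4 (exact rank-sum p = 0.0277, adjusted 0.221). In colon the ratios were 114, 110 and 109 in replicates 1 to 3 and 43.2 in replicate 5.

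The arms of the miR-145 hairpin were in unequal use between tissues. Over all libraries there were 12.3 reads of miR-145-3p per 100 reads of miR-145, while the miR-143 hairpin gave 923 reads of its 5p arm in all, or 0.646 per 10000 reads of miR-143. The value of miR-145-3p per 100 reads of miR-145 was 14.5 in a median library, with a range of 3.19 to 300. Tissue accounted for 69.2% of the variance of its log2 value, again as a raw share, with a permutation p of 1e-05, the smallest that 100000 resamples can give. Bone marrow stood apart with 84.9, 95.9, 49.2, 58.2 and 72.8 reads of miR-145-3p per 100 reads of miR-145 (adjusted exact rank-sum p = 0.000882). Plasma had a median of 91.3 (adjusted exact rank-sum p = 0.00304) and a range of 18.4 to 300, where the highest value rests on 1 read against 0. Both tissues rest on few reads, 131 against 178 in bone marrow and 53 against 85 in plasma summed over 5 libraries. The study describes separate RNA isolation for both and reports low RNA integrity values in both. Those conditions and the tissue cannot be told apart. Without plasma and bone marrow the permutation p over the remaining tissues was 0.00219.

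Pancreas was the third tissue past the threshold, with 31.8, 31.7, 21.9, 26.1 and 24.7 (adjusted exact rank-sum p = 0.0497) from 427 against 1608 reads. Its call was lost with 5 reads added (adjusted exact rank-sum p = 0.0621), with thinning (0.180) and without the low-marker libraries (0.0880), while bone marrow and plasma passed in each. At the low end skeletal muscle had 6.03, 20.0, 6.11, 3.76 and 3.23 (adjusted exact rank-sum p = 0.0618), and passed without its replicate 2. Liver spanned 6.76 to 50.9 and colon 6.74 to 27.4, while the tissue medians outside bone marrow and plasma ran from 6.03 to 26.1. Without plasma and bone marrow, pancreas was the 1 tissue past the threshold (adjusted exact rank-sum p = 0.000796).

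**Figure D4:**
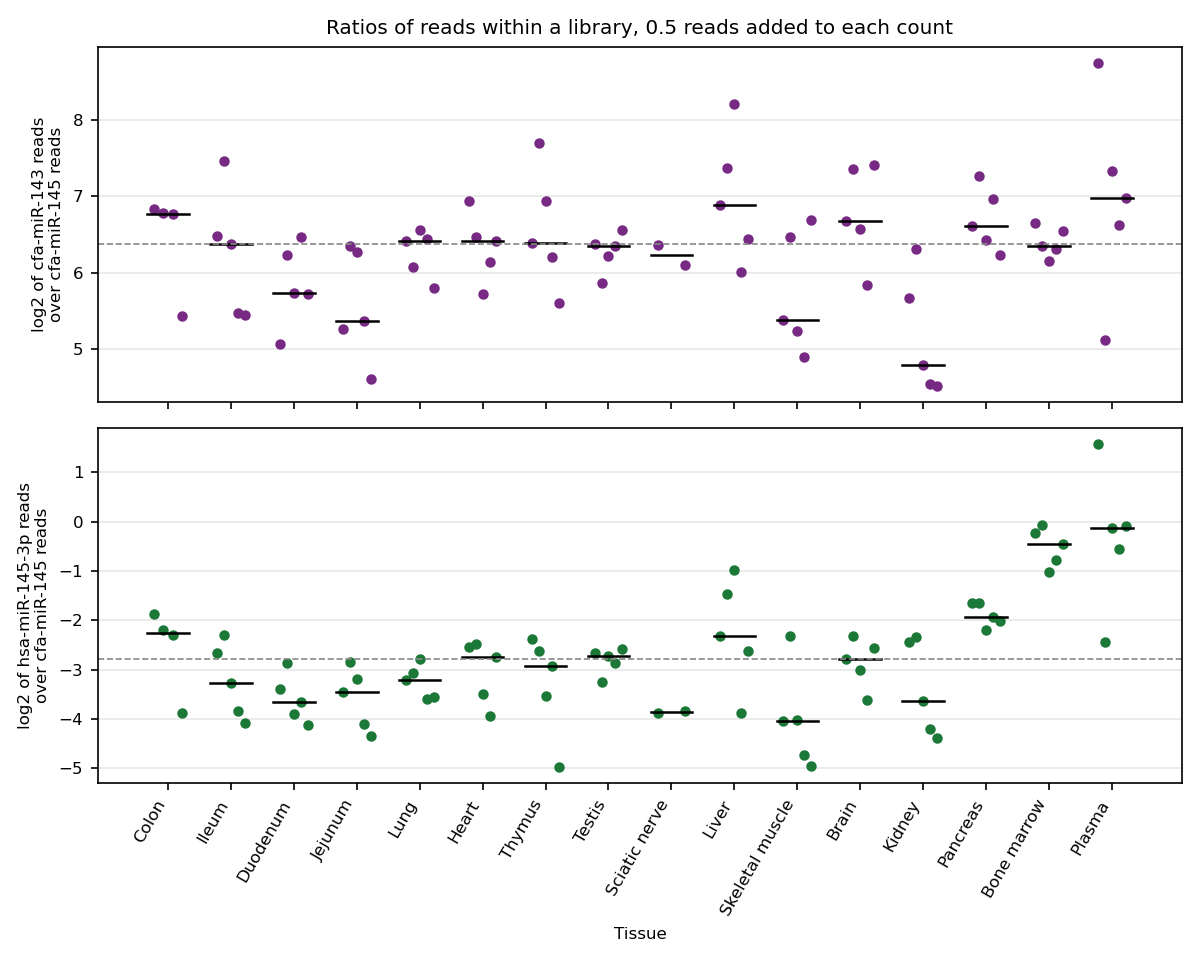
Log2 of miR-143 reads over miR-145 reads (upper panel) and of miR-145-3p reads over miR-145 reads (lower panel) in each library by tissue. Bars are at tissue medians and a dashed line at the median of all libraries (6.37 and −2.79). Kidney lies lowest in the upper panel, and bone marrow and plasma lie highest in the lower panel.

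The members were set beside the miRNAs of other cell types in the gut. The counts stand beside 30.6% called higher and 15.6% called lower among all 480 miRNAs. Of 8 miRNAs of intestinal epithelium, such as miR-192, miR-194 and the miR-200 family, 8 were higher in the gut, as were 4 of 4 of the miR-199 and miR-214 stromal list and 3 of 4 leukocyte miRNAs. Of 7 striated muscle miRNAs 1 was higher and 1 lower, of 2 endothelial ones 0 were higher and 1 lower, and of 3 erythroid ones 3 were lower. Of 2 neural miRNAs 2 were higher, the 1 hepatocyte miRNA was lower, and 0 of 3 acinar and 0 of 4 testis miRNAs were called in either direction. The contrast averages log2 levels over the other 12 tissues, so a miRNA called higher can be more abundant in some of them. The median summed level of the neural list was 60.4 to 106 RPM in the intestinal tissues. It was 40587 RPM in brain and 607 RPM in sciatic nerve, and 0.691 RPM in plasma. The skeletal muscle miRNA miR-206 was at 0 reads in all 4 intestinal tissues, and the cardiac miR-208a at 0 in colon and ileum.

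Within the 19 intestinal libraries, miR-143 was lower where the epithelial list was higher. The libraries richest in the epithelial list were jejunum replicate 2 with 55.1% of reads and duodenum replicate 2 with 54.1%, and they had 90656 and 84748 RPM of miR-143, the lowest of the 19 for the latter. The libraries poorest in it were duodenum replicates 4 and 3, with 0.618% and 2.52%, and they had 408300 and 604122 RPM. With the reads of miR-143 taken out of the denominator, miR-143 and the epithelial list had a Spearman rho of −0.82 and a Pearson r of −0.71 on log2 values. The same figures were 0.82 and 0.90 for the striated list, 0.22 and 0.02 for the stromal list and 0.35 and 0.40 for the endothelial list. Of the striated list, miR-133a had a median of 399 RPM in the gut, miR-1 15.8 RPM and miR-133b 8.56 RPM. Smooth muscle also makes miR-1 and miR-133, and which cells made them here was not tested. These are descriptions over 19 libraries of 4 segments that share library totals, and the part of the tissue layer sampled was not tested.

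**Figure D5:**
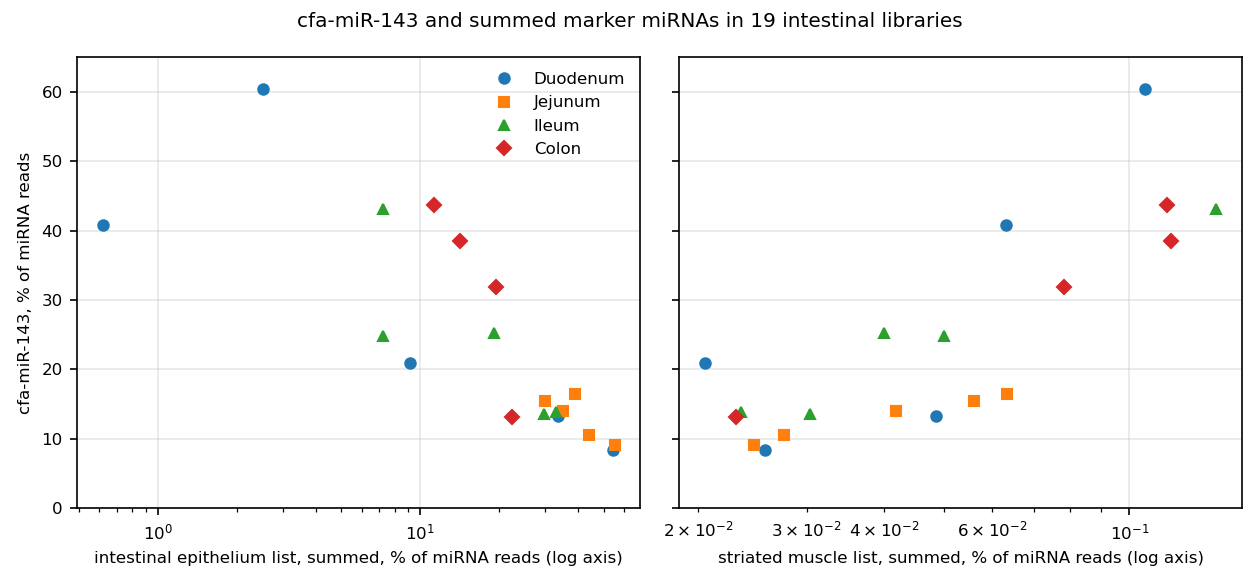
miR-143 as percent of miRNA reads against the summed share of the epithelial list (left) and the striated list (right) in the 19 intestinal libraries. List shares are percent of miRNA reads on a log axis, and symbols mark the segment. Points fall with the epithelial list and rise with the striated list, which shares miR-1 and miR-133 with smooth muscle. Their rho values of −0.82 and 0.82 were computed with the reads of miR-143 taken out of the denominator.

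Finally, 17 other miRNAs from hairpins that have been described in smooth muscle were followed in the same contrast of gut against the other 12 tissues. Of the 17, 11 were higher, 1 was lower and 5 were not past the threshold, with a median log2 difference of 1.198 beside 0.0046 over all 480 tested miRNAs, of which 30.6% were higher and 15.6% lower. The summed list did not set the gut apart, with median shares of 9.45% to 15.3% of reads in the intestinal tissues. Elsewhere these shares ran from 1.05% in plasma to 19.5% in lung and 23.7% in bone marrow. miR-490 was 12.9-fold higher, with 6.21 to 82.4 RPM in the gut and 0 to 282 RPM with a median of 0.917 RPM elsewhere. miR-146a, which restrains inflammatory signalling, was 8.33-fold higher, miR-31 7.70-fold and miR-21, one of the most abundant miRNAs of the gut at a median of 41624 RPM, 5.67-fold. miR-1, the muscle miRNA, was 3.22-fold higher at a median of 15.8 RPM, beside a median of 4429 RPM in heart. miR-204 was lower, by 4.04-fold. miR-133a (log2 0.58 ± 0.29, edgeR, adjusted p = 0.0939), miR-133b (0.75 ± 0.34, 0.0658), miR-222 (0.24 ± 0.17, 0.270) and miR-26a (−0.22 ± 0.15, 0.239) were not past the threshold. Neither was miR-100-3p, the only arm of miR-100 in the list, at 0 to 3.80 RPM in the gut and 0 to 13.7 RPM elsewhere. Several of these also mark other cells: miR-21 and miR-146a are made in leukocytes and epithelium. Between colon and small intestine, where 4.17% of all miRNAs were called, 1 of the 17 was higher in colon, miR-222 (log2 1.24 ± 0.33, edgeR, adjusted p = 0.0140), and between heart and skeletal muscle, with 6.25% of all called higher, 3 were higher in heart, namely miR-490, miR-31 and miR-100-3p. The call of miR-100-3p rests on low levels, at most 13.7 RPM in any library outside the gut.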

How the data were processed

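Small RNA libraries of 76 dog tissue samples were analysed. The authors clipped adaptors, aligned reads without mismatches to the dog genome (CanFam 3.1) with OSA, discarded reads that matched many places, and counted on each miRNA locus annotated in dog, rat or human the reads covering most of it. The deposited count is that number, and the deposited signal, RPM, is the count scaled to the library's total reads on miRNAs. RPM recomputed from them differed by at most 2.89e-09 (relative difference). A miRNA not listed in a sample was taken as 0. Samples were grouped by tissue label. 1 labelled colon sample had no values and 1 sample name of the table could not be mapped, and neither was used. Of 147 pairs of libraries of one tissue, none differed by sampling noise only (lowest chi-square per degree of freedom 10.3). RNA of all samples carries the same preparation label, although the methods give another reagent for bone marrow and a separate isolation for plasma.

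The count test was edgeR 4.0.16 (TMM, filterByExpr, quasi-likelihood, R 4.3.3) with the deposited totals as library sizes. SE is the log2 difference over the square root of F. DESeq2 1.42.0 was an alternative. RPM was tested by exact rank-sum and exact permutation tests on log2(RPM + 1), ratios with 0.5 reads added (Python 3.11.15, numpy 2.4.6, pandas 2.3.3, scipy 1.17.1, matplotlib 3.10.9). Intervals are 95% Wilson. Scripts were tested on simulated data. The members, marker lists and tests were chosen with earlier results of these data known. Beside the members, the rule for named miRNAs took the other arm of the hairpins, the 3 miRNAs most alike in pattern to miR-143 and to miR-145, and those of the smooth muscle and marker lists. Alternatives were other scalings, tools, filters and pseudocounts, totals without miR-143 reads, thinning, and each library left out.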

Additional observations from a re-analysis of the deposited data

Results flagged for a closer look

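A library was looked at again where it lay far from the rest of its tissue (Dixon's test at the 95% level, tissues of 4 or 5 libraries). This held in 3 of 75 groups, and chance gives about 1 in 20. miR-143 in pancreas replicate 4 was at 38971 RPM, against 14644 to 17134 RPM in the other 4 pancreas libraries, and that library was also the highest of its tissue in miR-145 (311 RPM) and miR-145-3p (81.0 RPM). miR-145-3p in liver replicate 4 was at 49.4 RPM against 109 to 122 RPM in the other 4 liver libraries, while miR-145 was at 740 RPM there, the highest of the liver. The log2 ratio of miR-143 to miR-145 in colon replicate 5 was 5.43, which is 43.2 reads of miR-143 per read of miR-145 against 109 to 114 in the other 3 colon libraries. That colon library had the lowest miR-143 and miR-145-3p of the colon with miR-145 within the range of the others.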

How the results depend on the processing

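No paired analysis was made because the labels carry no dog or replicate numbers. The tissues came from the same 5 dogs, and the tests treat libraries as independent. Samples are listed in repeated runs of one tissue order, but whether a run is 1 dog was not settled. Replicates 4 and 5 had the lowest miR-145-3p per miR-145 in ileum, jejunum, kidney, liver, lung and skeletal muscle. They also had the lowest ratios of miR-143 to miR-145 in ileum, kidney, liver and thymus. Colon replicate 5 had the lowest ratio of miR-143 to miR-145 in colon. For each ratio the other tissues with 5 libraries did not show this, and a shared effect was not tested. Of 170 values for the main comparisons under other settings, 151 kept their direction and call (for counts, within 1.5 times), as did 1940 of 1983 with 1 library left out. Some of these still moved in size: the enrichment fold of miR-145 in duodenum was 5.11 with TMM and 5.47 with totals without miR-143 reads, and the ratio of miR-143 to miR-145 in plasma, never called in these settings, was 0.11 (log2) with 5 reads added. Adjusted over all tissues together, the exact rank-sum p was 0.0253 for miR-143 in colon, 0.0184 for miR-145 in duodenum and 0.00721 for miR-145-3p in colon. In the intestinal contrast all 3 members stayed higher under every setting run. Library totals without miR-143 reads gave 1 enrichment call, miR-145-3p in colon at 5.30-fold, and moved the colon medians to 547684 RPM for miR-143 and 1185 RPM for miR-145-3p. This setting shifted the median of all tested miRNAs by 0.27, 0.14 and 0.28 (log2) in the gut, colon and heart contrasts, DESeq2's Wald test over all 650 miRNAs shifted the gut median by −0.36, and library size alone shifted the heart median by 0.15. With TMM-scaled values 3 neighbouring pairs passed for miR-143. Thinning to the smallest library left 0 tissues past the threshold in the ratio of miR-143 to miR-145, with kidney at −1.72 (log2), and without plasma and bone marrow 1 tissue, pancreas, was past it in the ratio of miR-145-3p to miR-145. miR-143 in heart against skeletal muscle passed with library size only (1.80), DESeq2 size factors (1.59), totals without miR-143 (1.93), DESeq2's Wald test (1.59), no filter (1.47), without plasma and bone marrow (1.497) and without the low-marker libraries (1.32); the last setting also gave 1.07 for miR-143, 0.013 for miR-145 and 1.39 for miR-145-3p in colon against small intestine and 1.44 for miR-145-3p in heart, and turned testis to −0.091, −0.30 and −0.28. The settings without low-marker libraries, and without plasma and bone marrow for the contrasts of tissues, were chosen after seeing the data.

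With 1 library left out, the ranges of the results that changed were −0.45 to 0.038 for miR-145 and 0.78 to 1.49 for miR-145-3p in colon against small intestine, and 1.19 to 1.56 for miR-143 (past the threshold in 16 of 76) and 1.37 to 2.00 for miR-145-3p (lost in 8 of 76) in heart against skeletal muscle. They were 0 to 1 for enrichment calls, 3.71 to 5.30 for the fold of miR-145-3p in colon, 0 to 3 for neighbouring pairs of miR-143, 0 to 2 for tissues in the ratio of miR-143 to miR-145 (kidney −1.71 to −1.15, plasma 0.45 to 0.80), and −1.66 to −1.29 for skeletal muscle in the ratio of the miR-145 arms. Among single tissues against the other 15, 69 of 2280 values lost the call, 45 of them miR-145-3p in heart and 11 miR-145-3p in pancreas. In plasma and bone marrow miR-145 rests on 0 to 48 reads a library. The causes of these changes were not tested.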

Other observations

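The rarest arm, miR-143-5p, had reads in 61 of 76 libraries and at most 35.0 RPM. Its median was 17.6 RPM in colon and 14.3 RPM in heart. In testis it was at 21.9 and 32.1 RPM in replicates 2 and 3, low in testis miRNAs, and at 18.9, 9.11 and 10.4 RPM in the others, and it had 0 reads in all 5 plasma libraries. It was 7.03-fold higher in the intestinal tract than in the other 12 tissues by edgeR's quasi-likelihood test (log2 2.81 ± 0.26, adjusted p = 8.97e-15), with a median of 12.6 RPM against 2.06 RPM. Reads of miR-143-5p per 10000 reads of miR-143 were 1.31 in testis, 0.950 in heart and 0.307 in brain, summed over the libraries of each tissue.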
